A study of Mus musculus with 3 samples.

Results

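The neutrophil granule genes encode the enzymes and antimicrobial proteins that neutrophils store for killing microbes, together with the S100 proteins that fill neutrophil cytosol. They were taken as a list of 10 gene symbols and looked up in the annotation of the array's probes. Of the 10 genes, 9 had a probe, 1 probe each, among 13697 genes with a probe value. Lcn2, which encodes the siderophore-binding protein lipocalin-2, had no probe under its symbol or gene identifier and was not analysed here. The genes fall into primary granule genes (Prtn3, Elane, Mpo and Ctsg), secondary granule genes (Camp, Ngp and Ltf, with Lcn2) and the cytosolic pair S100a8 and S100a9.

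The RNA came from the liver of mouse embryos at stage E14.5, and each of 3 genotypes was hybridised to a single CodeLink oligonucleotide array. Besides wild-type these were DNase II-deficient embryos and embryos without DNase II and without IFN-IR, which binds type I interferon (double-deficient), so both mutants lack DNase II, the lysosomal nuclease of macrophages. The sources used here do not give the strain, the deleted stretches or how many embryos each array stands for. Since no genotype was repeated, every difference is a value without a test or an error of its own, and the small number of arrays limits precision.

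Neutrophils make their granules in sequence as they mature in blood-forming tissue. Promyelocytes make primary granules, which hold myeloperoxidase and serine proteases, and the later myelocytes make secondary granules, which hold lactoferrin and cathelicidin. In the fetus the liver is the main blood-forming organ, and transcripts of primary and secondary granule proteins are found mainly in immature granulocytes. The transcription factors C/EBPα, C/EBPε, PU.1, an ETS family member, and RUNX1 are known to act in this lineage.

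The region before each gene's start is shown because the members moved together and differ in granule class. Promoter windows in RefSeq's mouse annotation (build GRCm38.p6), 250 bases before to 50 after the start, matched all 10 genes, and the 250 bases before the start are printed 5′ to 3′ for 3 primary and 2 secondary granule genes. The windows were searched on both strands for TTGCNNAA and TTNNGNAA (C/EBP), GGAAGT and GAGGAA (ETS family) and TGTGGT (RUNX). Capitals mark matches to the C/EBP and ETS motifs on either strand, with overlapping matches run together. Prtn3 is at chr10:79879417-79879666 (plus strand), Elane at chr10:79886062-79886311 (plus), Ctsg at chr14:56102575-56102824 (minus), Ngp at chr9:110419558-110419807 (plus) and Ltf at chr9:111019042-111019291 (plus).
Prtn3: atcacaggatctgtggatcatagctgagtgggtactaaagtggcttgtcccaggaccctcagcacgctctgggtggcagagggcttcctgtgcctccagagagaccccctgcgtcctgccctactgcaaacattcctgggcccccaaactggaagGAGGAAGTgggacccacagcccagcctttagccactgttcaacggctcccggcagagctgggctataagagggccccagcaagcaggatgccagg
Elane: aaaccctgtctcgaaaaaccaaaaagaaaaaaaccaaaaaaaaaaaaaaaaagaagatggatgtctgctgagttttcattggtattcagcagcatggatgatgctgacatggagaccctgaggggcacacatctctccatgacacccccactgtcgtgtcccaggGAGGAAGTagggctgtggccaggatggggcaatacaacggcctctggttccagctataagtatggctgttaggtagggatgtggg
Ctsg: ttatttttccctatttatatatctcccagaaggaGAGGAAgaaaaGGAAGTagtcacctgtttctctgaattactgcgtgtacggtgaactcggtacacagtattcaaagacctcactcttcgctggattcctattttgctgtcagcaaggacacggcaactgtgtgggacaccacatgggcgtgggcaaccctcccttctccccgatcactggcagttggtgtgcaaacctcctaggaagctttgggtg
Ngp: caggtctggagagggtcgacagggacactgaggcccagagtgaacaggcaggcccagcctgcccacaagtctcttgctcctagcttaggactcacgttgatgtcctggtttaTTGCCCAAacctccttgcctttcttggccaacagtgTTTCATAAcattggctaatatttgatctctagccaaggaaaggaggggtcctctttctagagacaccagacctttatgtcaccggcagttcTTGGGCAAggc
Ltf: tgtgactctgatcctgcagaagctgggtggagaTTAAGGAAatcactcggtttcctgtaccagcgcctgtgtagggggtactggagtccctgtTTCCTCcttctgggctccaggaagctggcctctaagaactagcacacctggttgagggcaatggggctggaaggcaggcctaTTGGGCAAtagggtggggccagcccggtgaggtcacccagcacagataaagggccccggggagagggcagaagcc

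The windows of the 4 primary granule genes each held both ETS motifs, which 8.65% of all 32851 promoter windows hold together. The plan was to count each motif singly, and this joint count was added after the matches were seen. In Prtn3 and Elane, and also in Mpo, the ETS motifs overlapped as GAGGAAGT. This run, picked out after the matches were seen, lay in 3.20% of all windows and, on the other strand, in S100a8. GGAAGT alone lay in 6 of the 9 measured members and in 23.8% of all windows, and GAGGAA in 6 of 9 and 28.3%. Among the secondary granule genes, Ngp and Ltf each held TTGCNNAA and, elsewhere in the window, a match to TTNNGNAA alone. Ltf also held GAGGAA. TTGCNNAA lay in Ngp, Ltf and S100a9, 3 of 9 members, and in 10.8% of all windows, and the looser TTNNGNAA in 4 of 9 and in 40.7%. With both strands searched, every match to TTGCNNAA is also a match to TTNNGNAA, as at TTGGGCAA in Ltf, so these counts are not separate. TGTGGT lay in Ctsg, Ltf and S100a9, 3 of 9 members, and in 16.8% of all windows. The Camp window held none of the motifs. A match describes letters in the window and is not a binding site.

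The values are normalised intensities on a linear scale, and the median was 0.958 in wild-type, 0.959 in DNase II-deficient and 0.964 in double-deficient liver. The Dnase2a probe, for the DNase II gene, read 40.4, 48.6 and 39.7 in that order, and the Ifnar1 probe, for an IFN-IR chain, 3.60, 4.66 and 3.17. Whether these probes fall inside the deletions is unknown here, so the genotypes rest on the labels. The hepatocyte gene Afp, at 582.5, 885.1 and 568.5, and the erythroid gene Sptb, at 158.6, 52.8 and 147.9, both defining for fetal liver, were far above the array median in all 3 arrays. A gene was compared between 2 arrays if its value exceeded the median of either array, and was called different from 2-fold.

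The granule genes were higher in the DNase II-deficient array than in wild-type, by similar amounts. Of the 9 measured members, 8 entered the comparison, and all 8 were at least 2-fold higher, against 7.67% of the 8383 genes compared. None was 2-fold lower, against 6.17%. Each of these 8 was also above the median of the wild-type array, so none entered through its higher value in the mutant. Over the 9 members the median log2 difference was 1.55, a fold of 2.94, whereas the median over all genes compared was -0.21. The differences ran from 1.41 to 1.79 on the log2 scale. In whole tissue, more cells of a type and more RNA per cell cannot be told apart.

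Among the primary granule genes, Prtn3, which encodes the serine protease proteinase 3, read 11.0 in wild-type, 37.9 in the DNase II-deficient array and 20.4 in the double-deficient array. It was 3.45-fold higher in the DNase II-deficient array and 1.86-fold higher in the double-deficient array than in wild-type. Elane, encoding neutrophil elastase, the neighbour of Prtn3 on chromosome 10 with no other protein-coding gene between them, read 21.9, 60.5 and 45.8. Both mutants were thus above wild-type for this protease, by 2.76-fold and 2.09-fold. Ctsg, the gene of the serine protease cathepsin G, read 7.44, 20.8 and 17.2, with folds of 2.80 and 2.31 over wild-type. All 3 protease genes had the order wild-type, double-deficient, DNase II-deficient from lowest to highest.

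Mpo, encoding myeloperoxidase, which makes hypochlorous acid from hydrogen peroxide, was dim. Its probe read 0.258 in wild-type, 0.758 in the DNase II-deficient array and 0.412 in the double-deficient array, below the median of each array and above the floor of 0.162, 0.159 and 0.163. It entered no comparison for that reason. Its log2 differences from wild-type, 1.55 and 0.67, were in the direction of the other members, but among genes of its level the typical spread of the difference was 1.26 and 0.54. With dim values raised to the array median in place of the floor, these differences were 0.00 and 0.01.

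Among the secondary granule genes, Camp, encoding the antimicrobial cathelicidin, read 23.8 in wild-type, 81.2 in the DNase II-deficient array and 59.5 in the double-deficient array. It was 3.41-fold and 2.50-fold higher than wild-type in the 2 mutants. Ngp, the gene of neutrophilic granule protein, a relative of the cathelicidins, read 12.5, 39.3 and 36.1. Its folds over wild-type were 3.15 and 2.89, so the 2 mutants lay close together. Ltf, encoding the iron-binding protein lactoferrin, read 7.17, 22.4 and 18.3, with folds of 3.13 and 2.55. All 3 genes lie on chromosome 9.

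S100a8 and S100a9 encode the calcium-binding partners of calprotectin, the most abundant protein of neutrophil cytosol. S100a8 read 68.4 in wild-type, 194 in the DNase II-deficient array and 164 in the double-deficient array. S100a9, next to it on chromosome 3 with no other protein-coding gene between them, read 124, 329.8 and 271. Against wild-type, S100a8 was 2.83-fold and 2.39-fold higher and S100a9 2.67-fold and 2.19-fold higher in the mutants. The plot of intensities shows the same order of arrays in each of the 9 genes.

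**Figure D1:**
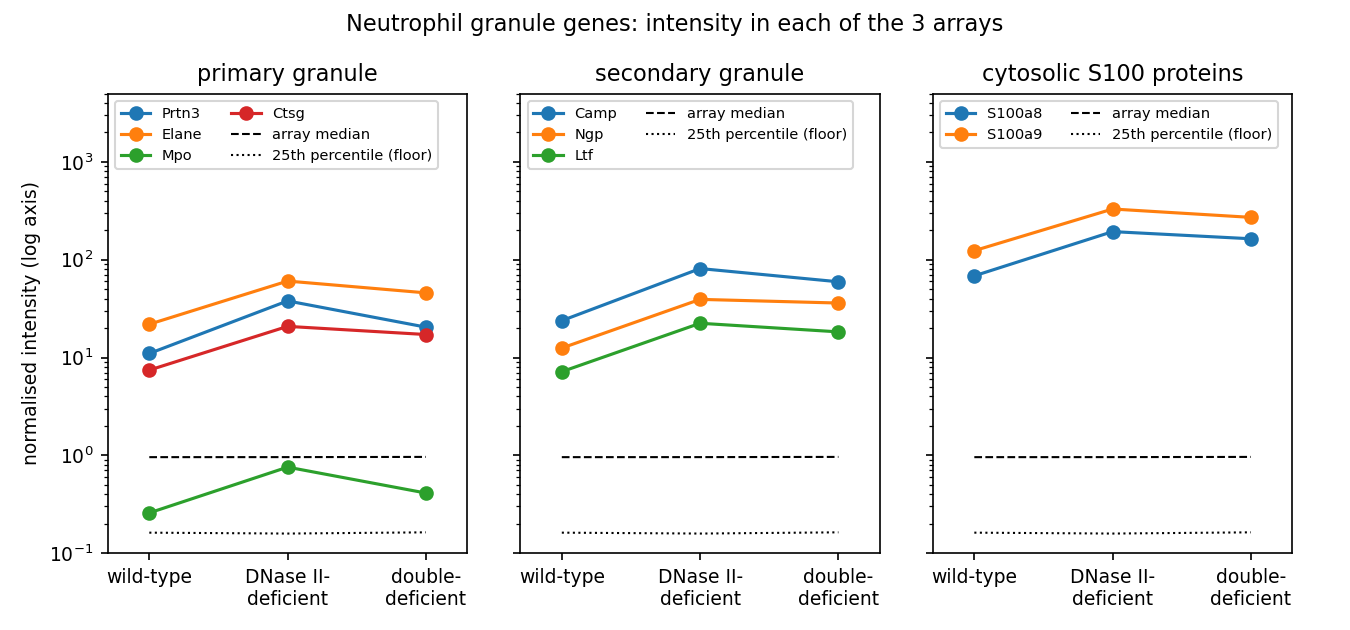
Normalised intensity (log axis) of each measured granule gene in each genotype's array, from wild-type to double-deficient, 1 point per array, in panels by primary granule, secondary granule and cytosolic S100 genes, with the array median dashed and the floor dotted. In each gene the DNase II-deficient array is highest and wild-type lowest, and only Mpo, at 0.258 to 0.758, lies below the array median.

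To set these differences against other genes of like brightness, the spread of the log2 difference was taken over the 500 compared genes nearest in mean level. For the 8 compared members it was 0.39 to 0.46 for DNase II-deficient against wild-type, and their differences were 3.22 to 4.48 times as large. This spread describes these arrays and is not a replicate error. Between 3.33% (for Prtn3) and 4.82% (for S100a9) of the genes compared had a larger positive difference than the member. The members were therefore far from the middle of the distribution, though many genes exceeded them, as the plot against mean intensity shows.

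**Figure D2:**
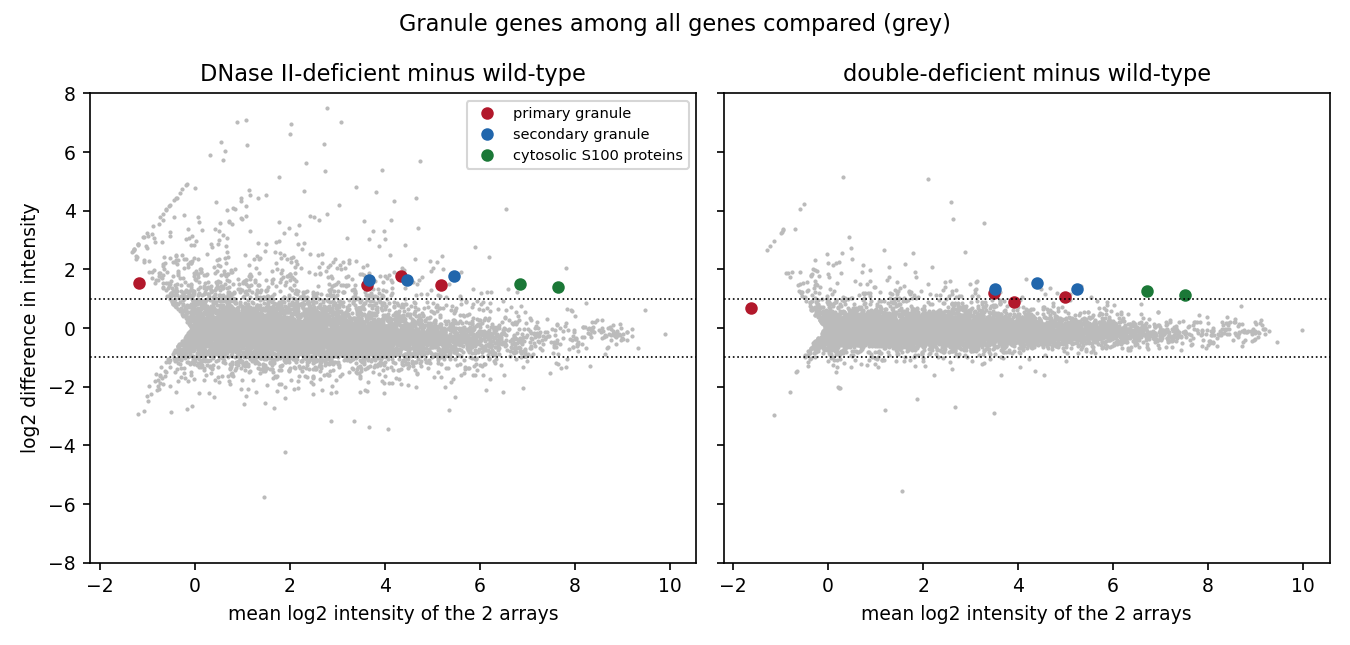
Log2 difference in intensity against mean log2 intensity for all genes compared (grey) and the measured granule genes (coloured by class), for DNase II-deficient minus wild-type on the left and double-deficient minus wild-type on the right; dotted lines mark 2-fold. The 8 compared granule genes sit between 1.41 and 1.79 on the left and between 0.89 and 1.53 on the right, and the leftmost coloured point in each panel is the dim Mpo, which was not compared.

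The comparison of the double-deficient with the wild-type array asks what remains of the difference when the interferon receptor is also missing. Most granule genes were still higher. Of the 8 members compared, 7 were at least 2-fold higher, against 2.05% of the 8158 genes compared, and the exception was Prtn3 at 1.86-fold. None was 2-fold lower, against 0.735%. The median log2 difference over the 9 members was 1.21, a fold of 2.31, beside -0.08 for all genes compared. Ngp was the highest at 1.53 on the log2 scale, and 0.797% of the genes compared exceeded it, while 2.50% exceeded Prtn3. The differences of the 8 members were 3.76 to 6.34 times the spread among genes of like level, which was 0.22 to 0.27 here. Both comparisons share the wild-type array.

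Secondary granule genes had the larger values in this comparison, with log2 differences of 1.32 for Camp, 1.53 for Ngp and 1.35 for Ltf. The primary granule genes read 0.89 for Prtn3, 1.07 for Elane, 0.67 for the dim Mpo and 1.21 for Ctsg, so the classes did not overlap. The gap was narrow, as Ctsg and Camp differed by less than the spread among genes of like level, 0.26 and 0.25. The class medians were 0.98 for the primary granule genes, Mpo included, and 1.35 for the secondary. In the DNase II-deficient array the same medians were 1.52 and 1.65, and there the classes overlapped, with Prtn3 and Camp highest at 1.79 and 1.77. Which of these ranked first depended on the scaling, with Camp at 2.02 and Prtn3 at 2.01 after quantile normalisation. S100a8 and S100a9, at 1.26 and 1.13 in the double-deficient array, lay below the secondary granule genes. With 4 and 3 genes and 1 array a genotype, the difference between classes was not tested.

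Between the mutants, which both lack DNase II, every granule gene read somewhat lower in the double-deficient array. None of the 8 members compared was at least 2-fold higher, against 3.11% of the 8303 genes compared, and none at least 2-fold lower, against 4.85%, so with shares this low the count does not set the members apart. The median log2 difference over the 9 was -0.29, beside 0.11 for all genes compared, and so -0.41 relative to them. Ngp was nearly equal, lower by 1.09-fold, and S100a8, Ctsg, S100a9 and Ltf were lower by 1.18-fold, 1.21-fold, 1.22-fold and 1.22-fold. Elane and Camp were lower by 1.32-fold and 1.37-fold. Among the compared members Prtn3 stood out with 1.85-fold, a log2 difference of -0.89. That was 2.56 times the spread among genes of like level, where the ratio was at most 1.27 in the other 7. The dim Mpo, which was not compared, was lower by a similar 1.84-fold. That was only 1.02 times the spread among the compared genes nearest in level, which unlike Mpo exceeded the median in at least 1 array. Whether Prtn3 passed 2-fold depended on the scaling of the arrays: its difference was -1.05 after quantile normalisation, -1.06 after cyclic loess and -1.005 after centring on the median gene, each past 2-fold.

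**Figure D3:**
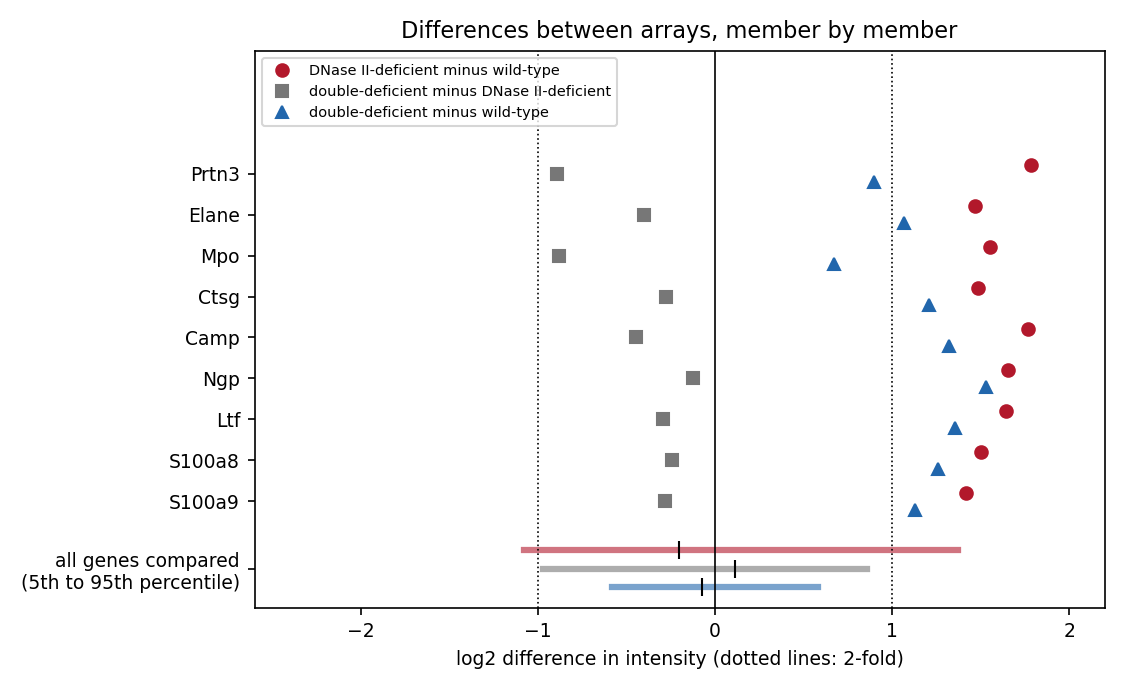
Log2 difference in intensity of each measured granule gene for DNase II-deficient minus wild-type (circles), double-deficient minus DNase II-deficient (squares) and double-deficient minus wild-type (triangles), with bars at the bottom for the 5th to 95th percentile of all genes compared, ticks at their medians and dotted lines at 2-fold. Circles lie between 1.41 and 1.79, squares between -0.89 and -0.12, and triangles between 0.67 and 1.53.

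Other genes of neutrophil granules and secretion mostly differed in the same direction as the members. Of 13 measured, 11 were compared for DNase II-deficient against wild-type. Of these, 9 passed 2-fold upwards and none downwards, against 7.67% and 6.17% of all genes compared. The median log2 difference was 1.58 over these 11 and 1.45 over all 13. Serpinb1a, whose product inhibits the granule serine proteases, read 14.1, 69.0 and 35.8 in wild-type, the DNase II-deficient and the double-deficient arrays. Ctsc, encoding the protease that activates elastase, proteinase 3 and cathepsin G, read 15.8, 65.5 and 41.2. Hp, the gene of haptoglobin, which hepatocytes also secrete, read 10.1, 41.7 and 32.2. In the double-deficient array 7 of 11 were at least 2-fold higher than wild-type, against 2.05% of all genes compared, with a median of 1.24. Between the mutants none of 11 was 2-fold different. There 3.11% of all genes compared were higher and 4.85% lower, so that count does not set the list apart. Mmp8 and Pglyrp1, named after their values were seen because their proteins lie in secondary granules, read 2.17, 7.41 and 5.13, and 4.69, 14.0 and 13.3. Their folds over wild-type were 3.41 and 2.36 for Mmp8 and 2.99 and 2.85 for Pglyrp1, beside 3.13 to 3.41 and 2.50 to 2.89 for the secondary granule members. Some other genes of the list, also named after their values were seen, were nearer wild-type than these. Slpi, an inhibitor of elastase, read 4.98, 7.97 and 5.44, with folds over wild-type of 1.60 and 1.09. Lyz2, a lysozyme gene that macrophages share, read 24.6, 52.2 and 47.8. Its folds were 2.12 and 1.94, so it passed 2-fold in the DNase II-deficient array only. The dim gelatinase gene Mmp9 read 0.243, 0.240 and 0.413.

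Genes of the NADPH oxidase, which makes superoxide in phagocytes, were higher in the DNase II-deficient array in 3 of 5 cases by 2-fold. The share of all genes compared was 7.67%, and the median log2 difference of the 5 was 2.15. Of the 3, Cybb and Ncf1 were below the wild-type median and entered through the DNase II-deficient array alone. Cybb, the catalytic subunit gene, read 0.728, 3.38 and 1.34, Ncf1 read 0.421, 1.94 and 1.44, and Ncf4 read 3.42, 15.2 and 7.54. Between the mutants 2 of 5 were at least 2-fold lower in the double-deficient array, Cybb by 2.53-fold and Ncf4 by 2.02-fold, and none was higher. The share of all genes compared that were lower was 4.85%. Against wild-type, 2 of 5 were at least 2-fold higher in the double-deficient array, against 2.05% of all genes compared. Of these 2, Ncf1 entered through the double-deficient array alone. Macrophages also express this enzyme, so these genes do not mark neutrophils alone.

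Neutrophil receptors and adhesion genes were more mixed. Of 12 measured, 10 were compared for DNase II-deficient against wild-type. Of these, 7 passed 2-fold upwards and none downwards, against 7.67% and 6.17% of all genes compared. The median log2 difference was 1.33 over the 10 and over all 12. Of the 7, Itgam, Il1r2 and Cd177 were below the wild-type median and entered through the DNase II-deficient array alone. Il1r2, the decoy receptor for interleukin-1, read 0.418, 5.02 and 0.786, and Fpr2, a receptor for formylated peptides, read 1.19, 9.11 and 5.01. Cd177, a neutrophil surface protein gene, read below the floor in wild-type and 0.986 in the DNase II-deficient array, at least 6.08-fold higher, and it read 0.856 in the double-deficient array. The complement receptor gene C5ar1 was nearly equal at 1.46, 1.23 and 1.38. In the double-deficient array, 1 of 6 compared was at least 2-fold higher than wild-type, against 2.05% of all genes compared, with a median of 0.50 over the 12. Between the mutants 3 of 10 were at least 2-fold lower in the double-deficient array, against 4.85%. Among these 3, Itgam and Il1r2 entered through the DNase II-deficient array alone. Cxcr2, the receptor for the chemokines Cxcl1 and Cxcl2, named after its values were seen, was below the array median and read 0.914, 0.418 and 0.263, opposite to the granule genes.

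Of 8 measured transcription factor genes of the granulocyte lineage, 7 were compared for DNase II-deficient against wild-type. Of these, 4 passed 2-fold upwards and none downwards, against 7.67% and 6.17% of all genes compared. The median log2 difference was 1.90 over these 7 and 1.01 over all 8. Of the 4, Gfi1, at 0.278 in wild-type, and Irf8 entered through the DNase II-deficient array alone. The level filter thus favours the upward count and the median over the 7. Irf8, which favours monocytes over granulocytes, read 0.431, 2.29 and 0.718. Cebpb and Cebpd, C/EBP family members active in inflammation, read 1.87, 8.92 and 3.71, and 2.30, 9.57 and 4.45. Myb, of immature blood cells, read 0.987, 0.867 and 1.07. Spi1, the gene of PU.1, and Runx1, both named after their values were seen as the factors of the motifs above, read 3.04, 2.86 and 3.22, and 1.18, 1.29 and 1.18. In double-deficient minus wild-type, none of the 5 compared reached 2-fold in either direction. Of all genes compared 2.05% were higher and 0.735% lower there, so that count does not set the list apart. Between the mutants 3 of 7 were at least 2-fold lower in the double-deficient array, against 4.85% of all genes compared. Among them Irf8 entered through the DNase II-deficient array alone. Cebpe, the C/EBP gene of secondary granule formation, had no named probe.

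Growth factors and chemoattractants for neutrophils differed among themselves. Of 9 measured, 5 were compared for DNase II-deficient against wild-type. Of these, 3 passed 2-fold upwards and 1 downwards, against 7.67% and 6.17% of all genes compared. The median log2 difference was 2.93 over these 5 and 0.52 over all 9, the other 4 being dim. The 3 upward genes, Cxcl1, Cxcl2 and Il1b, were below the wild-type median and entered through the DNase II-deficient array alone. The level filter thus favours the upward count and the median over the 5. The neutrophil chemokine genes Cxcl1 and Cxcl2 read below the floor in wild-type and 4.89 and 3.01 in the DNase II-deficient array, at least 30.2-fold and 18.6-fold higher. In the double-deficient array they read 3.07 and 0.950. Il1b, the gene of interleukin-1 beta, read 0.201, 1.54 and 0.730, and Kitl, the stem cell factor gene, read 16.2, 7.66 and 10.8. Csf3, which encodes the granulocyte growth factor G-CSF, named after its values were seen, read 8.73, 7.51 and 8.45. Between the mutants 2 of 5 were at least 2-fold lower in the double-deficient array, against 4.85% of all genes compared. These were Cxcl2 and Il1b, which entered through the DNase II-deficient array alone. Against wild-type 1 of 3 was at least 2-fold higher in the double-deficient array, against 2.05% of all genes compared. That was Cxcl1, which entered through the double-deficient array alone.

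**Figure D4:**
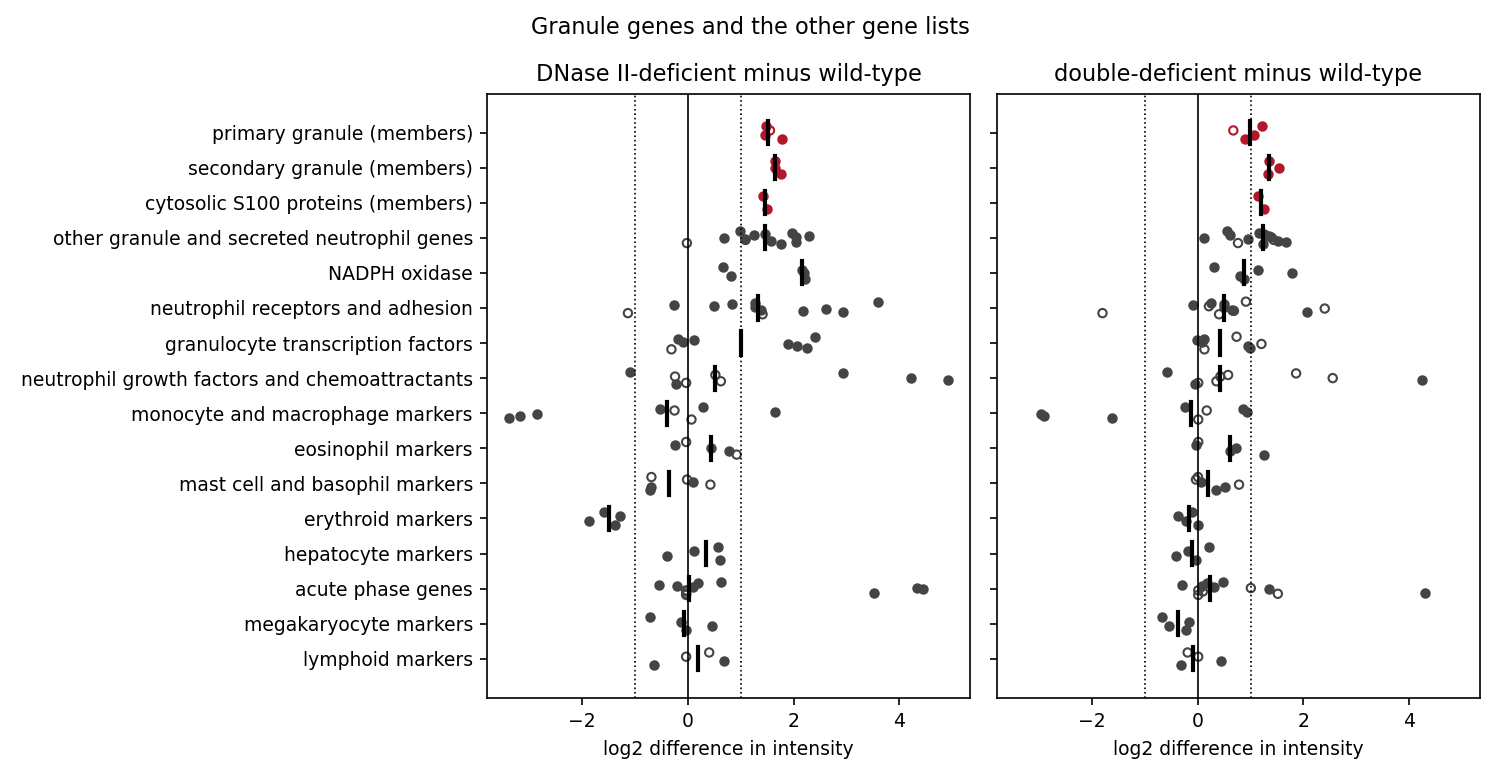
Log2 difference in intensity of every measured gene of the granule classes (red) and of the other lists (grey), 1 point per gene, filled where the gene was compared and open where it lay below the level filter, with a bar at each list's median and dotted lines at 2-fold; DNase II-deficient minus wild-type is on the left and double-deficient minus wild-type on the right. The list medians of the granule classes lie between 1.46 and 1.65 on the left and between 0.98 and 1.35 on the right, where the erythroid list moves from -1.48 to -0.16.

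Markers of other cell types of the fetal liver were read beside the granule genes. Of 4 measured erythroid markers, all 4 were at least 2-fold lower in the DNase II-deficient array than in wild-type, against 6.17% of all genes compared. Their summed level was 242.6 in wild-type, 82.7 in the DNase II-deficient and 219.6 in the double-deficient array. No erythroid marker was 2-fold different for double-deficient against wild-type. There 2.05% of all genes compared were higher and 0.735% lower, so that count does not set the erythroid markers apart. Of 8 measured monocyte and macrophage markers, 6 were compared for DNase II-deficient against wild-type. Of these, 1 was higher and 3 lower by 2-fold, against 7.67% and 6.17% of all genes compared. Over all 8 the median log2 difference was -0.38, with 3 higher and 5 lower by any amount. The summed level of the 8 was 91.2, 29.1 and 38.0, and Marco and Cd5l made up most of it in wild-type. Marco, of resident macrophages, read 41.1, 3.98 and 13.5, and Cd5l read 30.6, 3.41 and 4.10. Vcam1 read 12.45, 15.1 and 10.5. Ccr2, of inflammatory monocytes, read 0.910, 2.85 and 1.75, and it entered through the DNase II-deficient array alone. The part of these shifts in the granule gene differences was not tested.

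Markers of other granule-bearing cells were read as well. Of 5 measured eosinophil markers, 3 were compared for DNase II-deficient against wild-type and none reached 2-fold. Of all genes compared 7.67% were higher and 6.17% lower, so that count does not set the list apart. The summed level of the eosinophil markers was 24.7, 32.9 and 36.8 in wild-type, the DNase II-deficient and the double-deficient arrays. Il5ra, an interleukin-5 receptor chain that marks eosinophils, was below the floor in all 3 arrays. In double-deficient minus wild-type, 1 of 4 eosinophil markers compared was at least 2-fold higher, against 2.05% of all genes compared. This was the peroxidase gene Epx, named after its values were seen, which read 0.478, 0.907 and 1.14. It entered through the double-deficient array alone. Of 6 measured mast cell and basophil markers, 3 were compared and none reached 2-fold for DNase II-deficient against wild-type. Beside the same shares that count does not set them apart either. The summed level of these markers was 10.4, 8.72 and 12.2. No member of that list was at or below the floor in any array. Cpa3, the mast cell carboxypeptidase gene, read 2.35, 1.44 and 2.98, and Mcpt8, the basophil protease gene that lies beside Ctsg, read 2.14, 1.32 and 3.07. Between the mutants these genes were 2.08-fold and 2.33-fold higher in the double-deficient array, where Ctsg was lower.

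Acute phase genes, which the liver expresses in inflammation and to which Hp also belongs, were split. Of 12 measured, 8 were compared for DNase II-deficient against wild-type. Of these, 3 passed 2-fold upwards and none downwards, against 7.67% and 6.17% of all genes compared. The median log2 difference was 0.42 over these 8 and 0.03 over all 12, of which 4 read below the floor in both arrays. Of the 3, Serpina3n entered through the DNase II-deficient array alone. Hamp, the hepcidin gene, read 5.43, 117.7 and 13.7, Serpina3n read 0.440, 8.84 and 0.883, and Saa3 read 1.36, 15.7 and 26.8. Hepatocyte markers (4 of 4 compared), megakaryocyte markers (4 of 4) and lymphoid markers (2 of 4) had no member at least 2-fold different for DNase II-deficient against wild-type. Beside the same shares, counts over so few genes do not set these 3 lists apart. Their medians over the genes compared were 0.35, -0.08 and 0.03.

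Genes next to the members on the chromosome, looked up after the members' values were seen, mostly did not share the difference. The nearest measured protein-coding gene on each side was taken from RefSeq's gene order, which gave 14 genes besides the members. Of these, 11 were compared for DNase II-deficient against wild-type, and 2 passed 2-fold upwards, against 7.67% of all genes compared. None passed downwards, against 6.17%. Their median log2 difference was -0.12, beside -0.21 for all genes compared. The higher ones were S100a6, near S100a8 in the S100 gene cluster, at 5.06, 17.5 and 14.9, and the cell cycle phosphatase gene Cdc25a, beside Camp, at 1.22, 2.51 and 1.71. Ptbp1, before Prtn3, read 37.1, 34.2 and 31.5, and R3hdm4, beyond Elane, read 12.3, 9.37 and 11.3. Lpo, the lactoperoxidase gene beside Mpo, read 0.239, 0.223 and 0.185, below the median of each array.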

How the data were processed

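Per the labels, poly(A) RNA of fetal liver was copied into cDNA, transcribed with a biotin label, hybridised to CodeLink UniSet Mouse arrays and read with the CodeLink System Software. The intensity values the authors deposited are linear and already on a common scale per array. The sources used here do not give the software's version, its background method or its filters. A common scale hides differences in total RNA, and background subtraction leaves dim probes uncertain.

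Of 20289 probes, the 125 with a missing value were dropped. By the platform annotation 15120 had 1 gene symbol in the platform annotation, 38 several and 5131 none. Only the first kind was named. A gene with several probes was represented by its brightest (mean log2 level). Values below the array's 25th percentile were set to it and log2 transformed, and a fold against such a value is a lower bound. Genes above the median of either array were compared and called at 2-fold. Arrays do not count molecules, so there is no depth, and no test was made. Calculations used pandas 2.3.3, scipy 1.17.1 and limma 3.58.1 (quantile and loess scaling), and the steps were tested on simulated data.

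All granule genes are named. Of each other list, the rule named the 3 genes with the largest difference of DNase II-deficient against wild-type and the 1 farthest against the list's median. Not all of these are described. The members and lists were chosen with earlier results of these data known. The alternatives were 4 scalings, 2 floors, 2 level filters and averaging probes.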

Additional observations from a re-analysis of the deposited data

How the results depend on the processing

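No paired analysis was possible because each genotype has 1 array. The members' differences kept their direction under all 9 alternatives, Mpo apart: with the floor at the array median its log2 differences were 0.00, 0.01 and 0.01. Several alternatives could not alter the members' differences. Each member has 1 probe and none read at the floor, so averaging probes or removing the floor had no effect on them. The level filters change only which genes are compared. The floor at the array median could alter only Mpo, which lies below it. For the other members, only the scalings could have changed the direction. In DNase II-deficient minus wild-type, 8 or 9 members passed 2-fold upwards, with medians between 1.50 and 1.83. In double-deficient minus wild-type the count was 7 or 8 and the median 1.21 to 1.31. The primary granule median there, 0.98, passed 2-fold with quantile (1.055), 75th percentile (1.03), loess (1.10) and centred (1.06) scaling, and without Mpo (1.065), an alternative chosen after seeing the data. Prtn3 itself reached 1.01 there with loess. Between the mutants, quantile, loess and centred scaling each put 1 member, Prtn3, at least 2-fold lower. The median of all genes in DNase II-deficient minus wild-type was -0.21 as deposited, and relative to it the members lay at 1.76. Higher genes made up 55.4% of all calls in that comparison as deposited, 65.8% with quantile, 67.1% (75th percentile), 74.0% (loess) and 73.6% (centred) scaling, and between the mutants 39.0% as deposited, 25.2% with loess and 26.8% centred. With the filter at the 75th percentile, all genes called numbered 631, 350 and 92 in the 3 comparisons, against 1160, 661 and 227, and with no filter 356 in double-deficient minus wild-type. Dim probes such as that of Mpo limit what can be read.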
